A study of Mus musculus with 18 samples.

Results

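Liver of mice labelled Hmgn1-/- was compared with liver of Hmgn1+/+ mice in the saline arm of the study, which is the saline-injected control arm of a carcinogenesis experiment. The comparison takes all 6 arrays titled as saline-injected at 12 weeks, 3 of each genotype, out of 18 arrays in the series. The other 12 arrays hold both genotypes at 4 weeks without injection and at 12 weeks after the liver carcinogen N-nitrosodiethylamine (DEN), again with 3 arrays per group. Males were injected at 4 weeks of age, with DEN at 10 µg per g of body weight or with saline, for which the labels give the same 10 µg per g. The 12 weeks can be read as age or as time after injection, so the age at collection is not certain. The founders were littermates of a cross of heterozygotes, after which both homozygous lines were bred separately, so that any difference between the lines other than the targeted gene is part of the comparison. Whether the 3 arrays of a group stand for 3 animals is not stated, and p-values here measure the spread between arrays, whose number limits the precision.

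HMGN1 is a protein of the high mobility group that binds nucleosomes, competes with linker histone H1 and thereby affects how compact chromatin is. Hepatocytes, the main cells of the liver, make cholesterol, fatty acids and bile acids, and lipid synthesis genes there are switched on by the SREBP transcription factors. Bone morphogenetic proteins (BMPs), in liver mainly made by sinusoidal endothelial cells, act through receptors and Smad proteins to induce the Id genes, the inhibitory Smads and Hamp, which encodes the iron hormone hepcidin.

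Each array gives 1 signal (an intensity) per probe set, a group of short probes for 1 transcript. Differences are knockout minus wild type on the scale log2(signal + 16). Of 45037 probe sets that are not controls, 27022 were bright enough to be tested, and they stand for 12896 genes. A difference is called where limma's p-value, adjusted by Benjamini and Hochberg's method over all tested probe sets, is under 0.05, and "rose" and "fell" are kept for called differences. The 6 arrays had lower hybridization controls than the other 12 (BioB 57.9 to 79.3 against 388 to 602), but the controls overlapped between the genotypes, at 65.0 to 72.5 in knockout and 57.9 to 79.3 in wild type. The median signal did move with genotype, at 27.3 to 31.5 in knockout and 24.1 to 26.0 in wild type. Its part in the differences was not tested, except that scaling alternatives are given where they change a direction. Hepatocyte markers were bright on all 6 arrays: the summed signal of 6 measured markers was 68350 to 89030 in wild type and 78430 to 79450 in knockout.

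Knockout replicate 2 stood apart from the other saline arrays. On it 68 probe sets lay over 1 log2 unit above all 5 other arrays, against 1 to 25 for each of the others. These counts were made without the filter on brightness, so they can include probe sets too dim to be tested. Among them were genes of the adrenal gland and of fat, which were listed after these values were seen. Star, which brings cholesterol into mitochondria for steroid synthesis, had a signal of 801 on this array and 24.8 to 34.1 on the other 5. Chgb, a protein of hormone granules, had 626 against 1.60 to 16.3. The fat hormone Adipoq had 463 against 7.65 to 17.3. Fabp4, the fatty acid carrier of fat cells, had 2851 against 275 to 324. All 10 adrenal genes and all 4 fat genes of the list were highest on this array, by 1.82 to 194 times the next saline array. The knockout DEN array labelled replicate 1 showed the same genes, with Star at 1185 and Adipoq at 864, where the other 16 arrays of the series reached at most 36.6 and 33.3. The part of these signals in the results was not tested, and the counts of the lists described below are given again without knockout replicate 2 where they changed by over 1.5 times or lead an account.

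**Figure D1:**
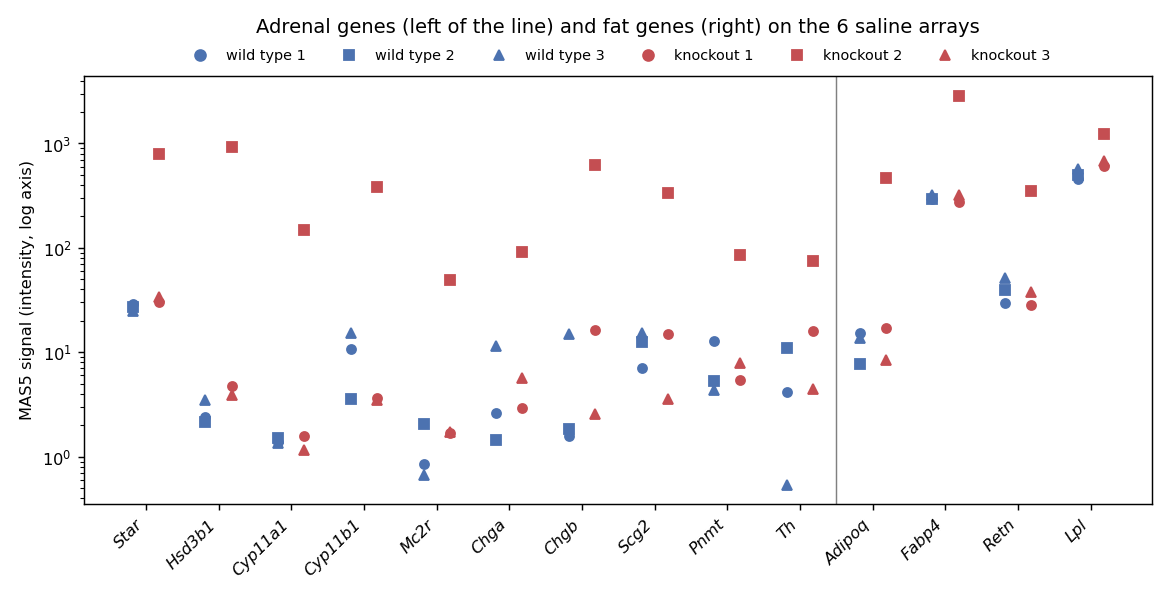
Signal on a log axis of 10 adrenal and 4 fat genes (brightest probe set of each) on the 6 saline arrays, with wild type in blue and knockout in red and the marker shape giving the replicate. Knockout replicate 2 (red squares) is the highest array for every gene, with Star at 801 where the other arrays have at most 34.1.

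The genotypes differed in few single probe sets. Of 27022 tested, 3 were called (0.0111%): Id1 and Smad7 rose in the knockout and Mvd fell. Before adjustment, 1426 had a p under 0.05 (5.28%). The calls depended on single arrays. Leaving out each array in turn, limma gave 0 calls when knockout replicate 1 was dropped (1160 at an unadjusted p under 0.05), 1 when wild-type replicate 3 was, 6 when wild-type replicate 1 was, and 3 or 4 for each of the others. With quantile-normalized values 4 were called higher and 3 lower, and with array medians set equal 2 higher and 7 lower; the latter moved the median difference of all tested probe sets from 0.04 to -0.09. In simulated data of this size, 64% of 50 changes of 1 log2 unit were recovered and 20% of 50 changes of 0.5.

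Id1 encodes an inhibitor of basic helix-loop-helix transcription factors and is a direct target of BMP signals (GRCm38.p6 chr2:152736251-152737410). Its signal was 256, 166 and 202 on the wild-type arrays and 731, 521 and 617 on the knockout arrays. Every knockout array was thus above every wild-type array. The difference was 1.52 (SE 0.19, 95% interval 1.12 to 1.92, adjusted p 0.00256 by limma). Without each array in turn it was 1.38 to 1.67, with an adjusted p of 0.051 without knockout replicate 1. It was called in 20 of 22 alternatives, the other loss being the fit without an intensity trend (adjusted p 0.0563).

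Smad7, on chromosome 18, encodes an inhibitory Smad that BMP and TGF-beta signals induce and that blocks their receptors. Its brightest probe set read 123, 139 and 84.7 in wild type and 573, 305 and 253 in knockout. The groups did not overlap, and knockout replicate 1 was well above the other knockout arrays. The difference was 1.52 (SE 0.23, 95% interval 1.03 to 2.0, adjusted p 0.0168). It was 1.18 without knockout replicate 1 (adjusted p 0.133) and 1.34 without wild-type replicate 3 (adjusted p 0.318). The call also failed without an intensity trend (adjusted p 0.242), with the saline arrays alone (0.067, or 0.0911 after quantile scaling) and with only the DEN and saline arrays (0.104), and held in 15 of 21 alternatives. This probe set has a name in _x_at, which marks possible binding to other transcripts. The other Smad7 probe set read 105, 82.0 and 97.1 against 208, 164 and 158, a difference of 0.80 (adjusted p 0.0728), again with no overlap.

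Mvd encodes mevalonate diphosphate decarboxylase, an early enzyme of cholesterol synthesis (chr8:122433596-122443422). The called probe set read 87.0, 108 and 118 in wild type and 36.1, 46.6 and 32.5 in knockout. All knockout arrays were thus below all wild-type arrays. It fell by 1.15 (SE 0.16, adjusted p 0.00392), with an adjusted p of 0.0874 without wild-type replicate 3 and 0.051 without knockout replicate 1. The call held in 18 of 21 alternatives, the other loss being the fit with only the DEN and saline arrays. The name of this probe set ends in _s_at, for probes that bind more than 1 transcript. The other Mvd probe set read 98.2, 97.3 and 115 against 62.9, 75.2 and 83.4. It also did not overlap, with a smaller difference of -0.41 (adjusted p 0.942). Leaving out all _x_at and _s_at probe sets kept 1 call, Id1.

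**Figure D2:**
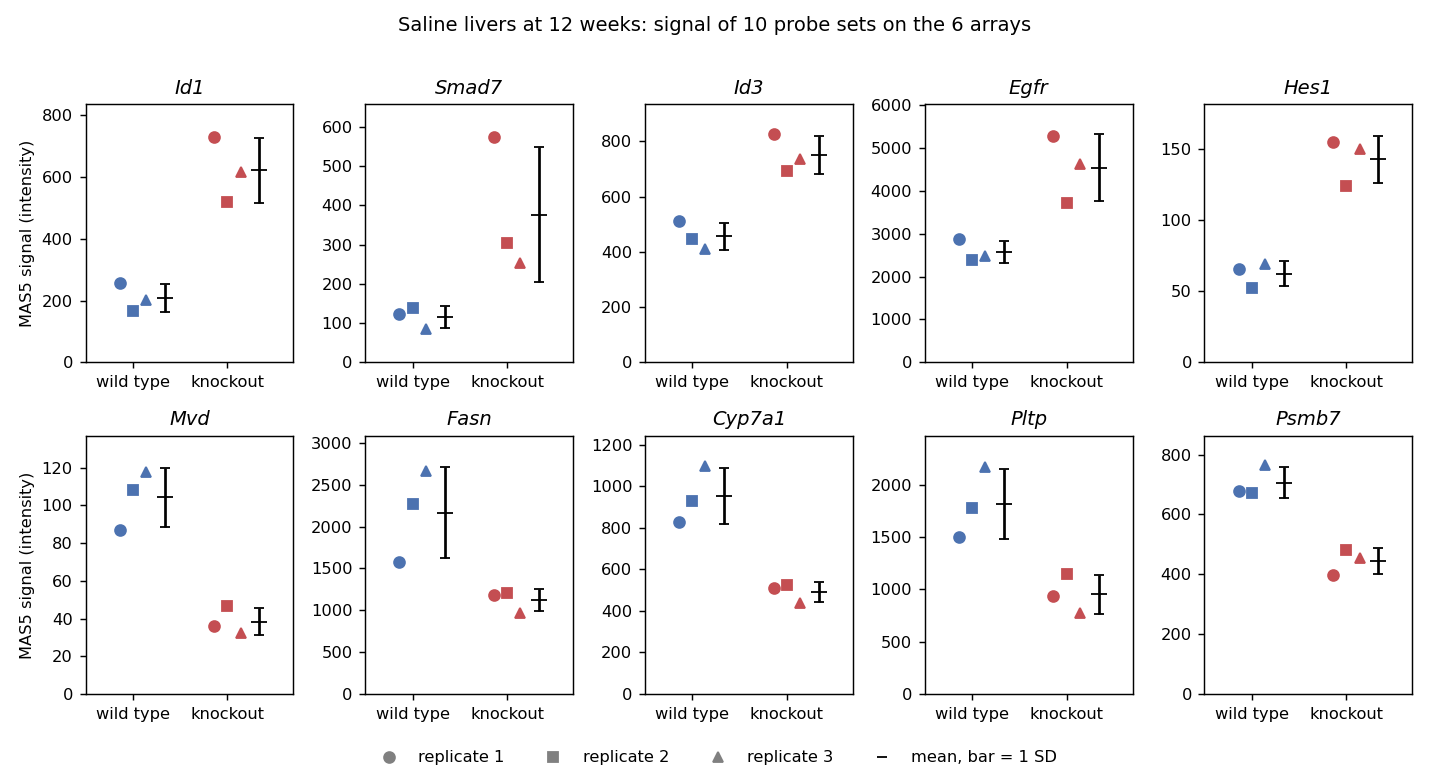
Signal (linear axis from 0) of 10 probe sets on the 3 wild-type (blue) and 3 knockout (red) saline arrays, with the mean and 1 SD in black. The knockout arrays lie all above the wild-type arrays in the upper row and all below in the lower row; of the 10, Id1, Smad7 and Mvd were called.

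Id1 and Smad7 belong to the list of BMP targets. Of 14 measured targets and inhibitory Smads, 10 had a positive difference and 5 had knockout arrays all above wild type (Id1, Id2, Id3, Smad6 and Smad7), where 10.4% of all 12896 genes did; 0 had them all below. The median of the 14 was 0.17, beside 0.02 over all genes. With equal array medians it was 0.05, beside -0.09 over all tested probe sets. Without knockout replicate 2 there were 7 of 14, with 18.4% of all genes. Of the 14, 5 were higher at an unadjusted p under 0.05, where 3.08% of all genes were. Since the called genes lie in this list, its count repeats them.

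Id3, a close relative of Id1, read 511, 446 and 412 in wild type and 828, 692 and 736 in knockout. The groups were clearly apart, and the difference of 0.70 (SE 0.13) missed the threshold at an adjusted p of 0.0676. Id2 had 3 tested probe sets, which were unequal in size. The brightest read 1357, 1828 and 1634 against 2603, 1881 and 2077, a difference of 0.44 (SE 0.17). The dimmest read 72.9, 128 and 104 against 340, 193 and 352, a difference of 1.39. Both had knockout arrays above wild type, the brightest by a narrow margin. The third read 1263, 1724 and 1488 against 2115, 1641 and 2047, with overlap, a difference of 0.37. Atoh8, a transcription factor that BMP6 and iron induce in liver, read 47.9, 28.8 and 27.9 against 76.7, 43.5 and 91.2. Its groups overlapped, at a difference of 0.74 (SE 0.33, adjusted p 0.942). Smad6 differed by 0.22 (adjusted p 0.993) with no overlap.

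Hamp was among the brightest genes and its groups overlapped. It read 8776, 8773 and 11520 in wild type and 10800, 9923 and 10040 in knockout, a difference of 0.09 with a 95% interval of -0.17 to 0.35. The sign of this small difference turned with equal array medians. Among 6 measured BMP ligands the differences ran from -0.11 to 0.32, the highest being Bmp7 at low signal (adjusted p 0.986). Among 11 receptors and co-receptors they ran from -0.24 to 0.13, and among the 3 measured signal Smads from -0.02 to 0.11. Knockout arrays were all above wild type for 1 of the 6 ligands and 0 of the others, where 10.4% of all genes were. They were all below for 1 of the 11 receptors and co-receptors and 0 of the others, where 8.13% were. Without knockout replicate 2, 2 ligands, 1 receptor and 1 signal Smad were all above, where 18.4% of all genes were. All below were then 1 ligand and 1 receptor, where 13.4% were. None of these 20 genes was called.

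All 17 measured genes of cholesterol synthesis had lower means in the knockout. The median difference was -0.38, against 0.02 over all genes, and 13 of the 17 had knockout arrays all below wild type, where 8.13% of all genes did. At an unadjusted p under 0.05 there were 9 lower and 0 higher, where 2.75% of all genes were lower. The probe sets that stand for these genes included 0 calls; the call of Mvd is on its dimmer probe set. Without knockout replicate 2, 14 of 17 did not overlap (13.4% of all genes) and the median was -0.42; it was -0.42 with quantile and -0.51 with median scaling.

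The differences of the pathway's genes were unequal. Dhcr7, the enzyme of the last step, read 704, 530 and 758 in wild type and 445, 413 and 283 in knockout, the largest difference of the list at -0.79 (SE 0.24, adjusted p 0.778). Fdft1, which makes squalene, read 2488, 2535 and 3113 against 1893, 1940 and 1569. Its difference was -0.59 (SE 0.16, adjusted p 0.516), and its other probe set gave -0.67. Neither gene had overlapping groups. Sqle, the squalene epoxidase, read 625, 716 and 807 against 482, 523 and 414, a difference of -0.58 (SE 0.17). Fdps, which makes farnesyl diphosphate, read 1981, 1814 and 2203 against 1182, 1597 and 1196, a difference of -0.60 (SE 0.25). In these too all knockout arrays were below all wild-type arrays. At the small end were Ebp at -0.09, Nsdhl and Sc5d at -0.17 each, and Cyp51 at -0.17. Sc5d had 3 tested probe sets of unequal difference, at -0.57 for one of middle brightness and 0.10 for the dimmest.

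Promoters of genes in this set are shown because its members differed in 1 direction and share a short motif. RefSeq windows of build GRCm38.p6, 250 bases before to 50 after a start site, were at hand for 14 of the 17 genes. All 14 held CCAAT on either strand (ATTGG on the other) in at least 1 window, where 41.1% of 27025 genes with a window did. CCAAT is the letters bound by NF-Y, a factor that works beside SREBP at sterol genes. The core of the sterol element of the LDL receptor gene, CACCCCAC on either strand, was in 1 of the 14 (Hmgcs1), where 3.30% of all genes held it. A match is a description of letters and not a measured site. Below are the windows of Mvd (chr8:122443373-122443672, minus strand), Dhcr7 (chr7:143829964-143830263, plus strand, 1 of 3 windows), Sc5d (chr9:42264251-42264550, minus strand) and the fatty acid synthase gene Fasn (chr11:120824498-120824797, minus strand), 5′ to 3′, with CCAAT and ATTGG in capitals.
Mvd: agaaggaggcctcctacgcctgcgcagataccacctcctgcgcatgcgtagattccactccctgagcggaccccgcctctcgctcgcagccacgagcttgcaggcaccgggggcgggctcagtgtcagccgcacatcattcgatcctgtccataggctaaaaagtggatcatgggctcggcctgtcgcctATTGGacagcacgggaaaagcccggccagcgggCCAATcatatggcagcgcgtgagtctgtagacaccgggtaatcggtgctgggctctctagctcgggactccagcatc
Dhcr7: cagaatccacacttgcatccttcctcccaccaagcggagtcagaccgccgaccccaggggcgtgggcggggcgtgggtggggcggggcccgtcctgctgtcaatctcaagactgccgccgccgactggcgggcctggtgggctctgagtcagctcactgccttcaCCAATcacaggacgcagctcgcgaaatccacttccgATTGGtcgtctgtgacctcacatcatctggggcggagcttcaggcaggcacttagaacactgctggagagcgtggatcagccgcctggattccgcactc
Sc5d: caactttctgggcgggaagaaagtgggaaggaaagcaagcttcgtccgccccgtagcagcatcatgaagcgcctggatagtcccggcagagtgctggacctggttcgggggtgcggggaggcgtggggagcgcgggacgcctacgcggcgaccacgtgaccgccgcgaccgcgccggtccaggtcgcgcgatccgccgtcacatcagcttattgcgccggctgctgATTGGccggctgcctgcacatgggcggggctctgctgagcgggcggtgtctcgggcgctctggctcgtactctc
Fasn: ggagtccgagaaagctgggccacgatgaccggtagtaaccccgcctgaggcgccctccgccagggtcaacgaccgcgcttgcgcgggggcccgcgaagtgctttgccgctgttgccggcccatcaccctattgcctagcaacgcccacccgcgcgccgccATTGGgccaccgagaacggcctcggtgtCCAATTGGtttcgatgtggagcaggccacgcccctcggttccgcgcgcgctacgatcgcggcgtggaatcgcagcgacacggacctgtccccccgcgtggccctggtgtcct
Mvd held the motif in both orientations, starting 60 and 27 bases before the start site, and Dhcr7 at 85 and 49 bases before it.

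For the BMP targets, 10 of 14 had a window. GGCGCC, the core of a BMP element that reads the same on both strands, was in 4 of the 10 (Hamp, Id2, Id4 and Smurf2), where 13.4% of all genes held it. CCAAT was in 4 of the 10 as well.

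**Figure D3:**
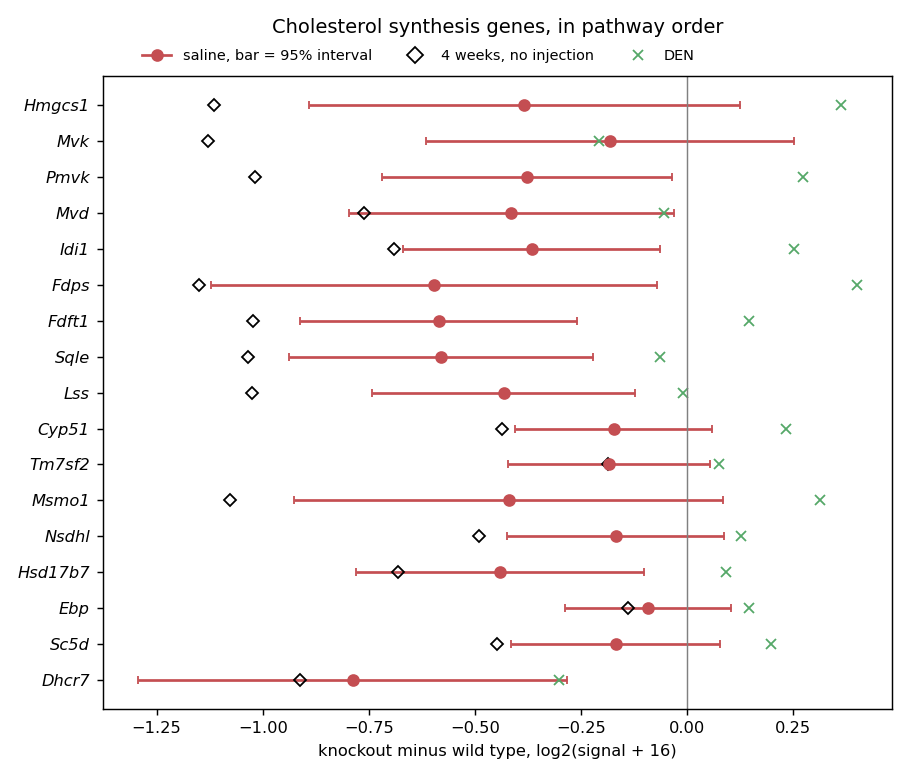
Knockout minus wild-type log2 difference of the 17 measured cholesterol synthesis genes in pathway order, at the brightest tested probe set of each: saline (red, with 95% intervals), 4 weeks without injection (open diamonds) and DEN (crosses). All 17 saline values are below 0, from -0.79 (Dhcr7) to -0.09 (Ebp); Mvd is drawn at -0.41, not at its called probe set.

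Genes of fatty acid synthesis were mostly lower as well, led by Fasn. Of 20 measured, 17 had negative differences with a median of -0.17, 4 had knockout arrays all below wild type, where 8.13% of all genes did, and 0 all above. Without knockout replicate 2 it was 6 below and 1 above of 20, where 13.4% and 18.4% of all genes were. Fasn read 1577, 2263 and 2660 in wild type and 1184, 1205 and 967 in knockout. The wild-type arrays were widely spread but all above the knockout arrays. The difference was -0.92 (SE 0.17, adjusted p 0.0728), and it was -1.13 to -0.75 with single arrays left out. Aacs, which makes acetoacetyl-CoA for lipid synthesis in the cytosol, read 264, 273 and 255 against 151, 188 and 138. It was tight in wild type, with a difference of -0.69 (SE 0.15, adjusted p 0.245). The other tested Aacs probe set differed by only -0.28 (adjusted p 0.94), also with no overlap. Gpam, the first enzyme of triglyceride synthesis, differed by -0.41 (adjusted p 0.778).

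Of 16 measured SREBP regulators and genes of the LDL receptor axis, 9 were higher and 7 lower, with a median of 0.10 that turned to -0.03 with equal array medians. In this list 2 were all above and 4 all below wild type, where 10.4% and 8.13% of all genes were. Without knockout replicate 2 it was 3 above and 4 below of 16, where 18.4% and 13.4% of all genes were. Srebf1, which encodes the SREBP forms that drive fatty acid synthesis, read 855, 1047 and 1174 against 823, 760 and 833. Its difference was -0.33 (adjusted p 0.871). Insig1, a sterol sensor partner that is itself an SREBP target, read 3162, 3332 and 3297 against 2915, 2838 and 2535, a difference of -0.24 (adjusted p 0.942). Both had no overlap. Abcg8, a subunit of the transporter that moves cholesterol into bile, was the other way at 0.31 (adjusted p 0.925). Pgd, an enzyme of the pentose phosphate path that yields NADPH for lipid synthesis, differed by -0.51 (SE 0.10, adjusted p 0.114). Its other tested probe sets differed by -0.42 to -0.23, the smallest with overlap. Pklr, liver pyruvate kinase, differed by -0.39 (adjusted p 0.612).

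Cyp7a1, whose enzyme sets the pace of bile acid formation from cholesterol, read 829, 931 and 1097 in wild type and 512, 523 and 438 in knockout. The groups lay well apart, and the difference was -0.93 (SE 0.23, adjusted p 0.372). Its dimmer probe set differed by -0.56. The rest of the bile acid list did not share this: over 18 genes the median was 0.03, with 10 positive. On the 6 arrays 1 was all above and 1, Cyp7a1 itself, all below, where 10.4% and 8.13% of all genes were. The gene above was Nr0b2, which encodes a repressor of Cyp7a1 and was picked out after its values were seen, at 0.40 (adjusted p 0.986). Without knockout replicate 2 it was 2 above and 1 below of 18, where 18.4% and 13.4% of all genes were. Pltp, the phospholipid transfer protein of lipoproteins, read 1501, 1777 and 2171 against 936, 1147 and 774. This was a difference of -0.92 (SE 0.23, adjusted p 0.372) with no overlap. The dimmer Pltp probe set differed by -0.40, also with no overlap.

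By smallest p, each direction held a mixed set of further genes, none of them called. Higher in the knockout were Egfr, Hes1, Zfp24, Fmr1nb, Bin3, Nfxl1, Rsbn1, Mob3c and Pim1, with differences of 0.39 to 1.29 and adjusted p of 0.217 to 0.337. The epidermal growth factor receptor gene Egfr read 2873, 2383 and 2470 in wild type and 5262, 3714 and 4622 in knockout at its brightest probe set, a difference of 0.80 (SE 0.17). Its 6 tested probe sets were not alike: 3 differed by 0.69 to 0.80 with no overlap and the other 3 by -0.06 to 0.08 with overlap. Hes1, a repressor that Notch signals induce, read 66.0, 52.2 and 69.0 against 155, 124 and 150, a difference of 1.02 (SE 0.22). Fmr1nb and Mob3c were at low signal in wild type, at means of 22.0 and 17.7, so that the size of their difference depends on the 16 added. The other tested Mob3c probe set, also at low signal, differed by -0.07 with overlap. The other, dimmer probe sets of Zfp24 differed by -0.16 to 0.33, those of Rsbn1 by 0.03 to 0.18 and that of Pim1 by 0.35.

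Lower in the knockout were Psmb7, Pxdc1, Septin9, Zdhhc12, Hhex, Acsm5, 2610528J11Rik and Apol7a, beside Fasn, Pgd, Aacs and Pltp. Psmb7, a catalytic subunit of the proteasome, read 679, 673 and 766 in wild type and 397, 481 and 456 in knockout. The difference was -0.65 (SE 0.12) at an adjusted p of 0.0676. Pxdc1 read 856, 1229 and 1194 against 711, 689 and 744, with -0.58 (SE 0.11, adjusted p 0.0728). Hhex, a homeobox factor of liver development, read 1287, 1867 and 1608 against 810, 962 and 1060, with -0.73 (SE 0.17, adjusted p 0.308). In all 3 the knockout arrays were below every wild-type array. Among genes of larger signal whose groups did not overlap, Slc15a2, a peptide transporter, differed by 1.08, and Bcl6, a repressor in the growth hormone pathway, by 1.12. In both, knockout replicate 2 was the lowest knockout array, at 79.1 and 542, with the highest wild-type array at 69.2 and 492. The other tested Bcl6 probe set, at low signal, differed by 0.44 with overlap.

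Weighting the arrays by their agreement within groups, an alternative of limma, changed the count more than any other alternative. The saline arrays then had weights of 1.30 to 1.92, against 0.425 to 1.80 on the other 12, and 94 probe sets were called (0.348%), 46 higher and 48 lower. They included the 3 called without weights. All 94 had no overlap between the genotypes, which a choice by small p on these same arrays favours. Of the 94, 58 were also called at 4 weeks in the same direction and 0 in the opposite one. Of all tested probe sets, 2.26% were called at 4 weeks. Both sets of calls use a spread shared over all arrays, so the 58 are not an independent count. Among those called higher with weights were Id3 (adjusted p 8.73e-04), Hes1, Egfr, Pim1, Il1r1, and both Smad7 probe sets. Among those called lower were Psmb7, Fasn, Cyp7a1, Pltp, Hhex, Sqle and both Fdft1 probe sets. Fitted on the 6 saline arrays alone, 9 probe sets were called and 3260 (12.1%) had an unadjusted p under 0.05.

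Most macrophage markers had lower means in the knockout. Among 18 measured markers of Kupffer cells, the liver's resident macrophages, the difference was below 0 for 16, and its median was -0.22. On the 6 arrays, 7 of the 18 were all below wild type and 0 all above, where 8.13% and 10.4% of all genes were. The summed signal of the 18 markers was 8416 to 9837 in wild type and 7596 to 8106 in knockout. Without knockout replicate 2, 17 of 18 were negative and 8 did not overlap, at 44.4% against 13.4% of all genes. In whole liver, fewer cells of a type and less RNA per cell cannot be told apart. The complement subunit gene C1qa read 448, 493 and 521 against 311, 319 and 351, a difference of -0.55 (SE 0.16, adjusted p 0.625). The Kupffer lectin Clec4f read 595, 679 and 635 against 470, 439 and 549, a difference of -0.38 (adjusted p 0.813). C1qb, picked out after its values were seen because its probe sets disagreed, differed by 0.07 at the brightest and by -0.61 at another. Tyrobp, another marker, differed by 0.05, a sign that turned when wild-type replicate 3 was left out.

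Of 12 stellate cell and fibroblast markers, 9 were lower with a median of -0.17, among them Dcn at -0.24 and Ecm1 at -0.29. Of the 12, 4 had all knockout arrays below wild type and 0 above, where 8.13% and 10.4% of all genes did. The counts were 7 and 2 without knockout replicate 2, where 13.4% and 18.4% of all genes were. Of 11 markers of sinusoidal endothelium, 8 were lower with a median of -0.10. The summed signal of the stellate markers was 5701 to 5972 in wild type and 4815 to 5613 in knockout, and that of the endothelial markers 4162 to 4488 and 3786 to 4078. Of the 6 hepatocyte markers, 3 were higher and 3 lower, between -0.02 and 0.11. No gene of these lists was called.

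Other lists leaned to 1 side by small amounts. Of 21 heat shock chaperones, 19 were lower with a median of -0.12, and 6 had all knockout arrays below wild type, where 8.13% of all genes did (12 of 21 without knockout replicate 2, where 13.4% did). Dnajb4 differed by -0.34 and Dnajb1 by -0.31 (adjusted p 0.942 each). Of 29 immediate early genes, which stress and growth signals induce within minutes, 23 were higher with a median of 0.19, or 0.06 with equal array medians. Of the 29, 4 had all knockout arrays above wild type, where 10.4% of all genes did. Without knockout replicate 2 it was 9 of 29, where 18.4% did. Ier2 differed by 0.43 and Jun by 0.52. Of 17 Notch pathway genes, 14 were higher with a median of 0.21 (0.08 with equal medians). Of these, 5 were all above wild type, where 10.4% of all genes were, among them Hes1 and the ligand gene Dll1. It was 10 of 17 without knockout replicate 2, where 18.4% were. In the other direction 2 of 17 were all below, among them Hes6, at -0.32 (SE 0.09, adjusted p 0.516). Of 20 growth hormone and male-biased genes, 17 were higher with a median of 0.11, which turned to -0.02 with equal medians, and Hsd3b5 and Slco1a1 differed by 0.36 and 0.23.

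**Figure D4:**
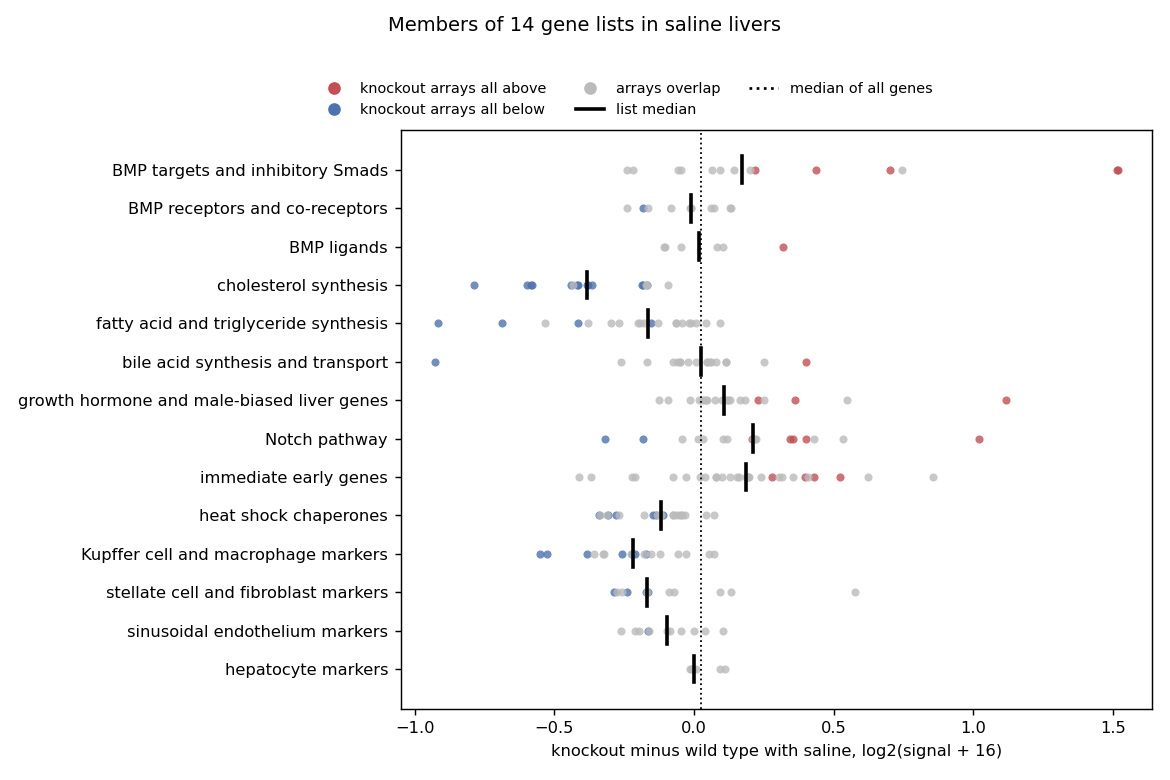
Each dot is the knockout minus wild-type log2 difference of 1 measured gene in saline livers, by gene list; red dots have all 3 knockout arrays above wild type, blue dots all 3 below, grey dots overlap. Black bars are list medians, such as -0.38 for cholesterol synthesis and -0.22 for Kupffer cell markers, and the dotted line is the median of all genes at 0.02.

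Hmgn1 itself did not check the labels. Its brightest probe set read 5287, 5039 and 5522 in wild type and 5409, 5220 and 4838 in knockout, a difference of -0.04 (adjusted p 0.995) whose sign turned with loess scaling. The other tested probe sets differed by -0.15 and -0.09, and a dim one, not tested, had means of 13.7 and 20.8. Which part of the gene is deleted is not given in the sources used here, so a signal from outside it would be no test. Among 7 measured HMG family genes the differences ran from -0.13 to 0.11. Near Hmgn1 on chromosome 16, 29 genes were measured, 18 of them higher, and 3 were all above and 3 all below wild type, shares near the 10.4% and 8.13% of all genes. The neighbour with the smallest p was Tmprss2, a serine protease gene, with 40.2, 44.5 and 56.0 against 73.6, 79.3 and 88.8 (difference 0.62, adjusted p 0.723).

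At 4 weeks, before any injection, the same genotypes differed more, with 611 probe sets called (2.26%). Those genes were followed in the saline arrays, which are other samples. The choice was not independent of them, as the 4-week p-values use a spread shared over all 18 arrays. Such a choice favours genes of small spread, also within the saline groups, and its part in the counts was not tested. Of 230 genes called higher at 4 weeks, 111 (48.3%) had all knockout saline arrays above wild type, against 10.4% of all genes, and 0 had them all below. Of 167 called lower, 90 (53.9%) had them all below, against 8.13%, and 1 all above. Without knockout replicate 2 these were 159 of 230 (69.1%, all genes 18.4%) and 109 of 167 (65.3%, all genes 13.4%). The median saline difference was 0.22 for the first set and -0.26 for the second, where the 4-week medians, which chose them, were 0.61 and -0.59. Id1 had 2.48 at 4 weeks and 1.52 with saline, Fasn -1.41 and -0.92, and Cyp7a1 -2.51 and -0.93. The called Smad7 probe set was the other way, at 0.95 and 1.52. Of the 17 cholesterol genes 14 were called lower at 4 weeks, with a list median of -0.91. Psmb7 and Mob3c, by contrast, were not called at 4 weeks, at -0.22 (adjusted p 0.40) and -0.15 (adjusted p 0.878). For Mob3c this is the brighter probe set, and the other showed no such saline difference (-0.07).

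The test of the saline difference minus the 4-week difference called 1 probe set of 27022 (0.0037%), with 1086 at an unadjusted p under 0.05. It was Scara5, a scavenger receptor that takes up ferritin. With saline it read 220, 139 and 226 in wild type and 381, 312 and 327 in knockout, which is a difference of 0.78 (SE 0.27, adjusted p 0.849) with no overlap. At 4 weeks its difference was 3.46, and the saline difference minus the 4-week one was -2.68 (adjusted p 0.0140). The other tested Scara5 probe set, at low signal, did not share this. It differed by -0.05 at 4 weeks and 0.56 with saline, and saline minus 4 weeks was 0.61. The call was lost with 64 added before the logarithm (-1.94, adjusted p 0.132), without the intensity trend, with the replicate number as a block, and when any of 9 of the 12 arrays was left out, where the adjusted p was 0.058 to 0.094.

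In the DEN arrays the same sets of genes had few members without overlap in their 4-week direction. Of the 230 higher genes 9 (3.91%) had all knockout DEN arrays above wild type and 18 below, and of the 167 lower genes 2 (1.20%) had them below and 16 above, where 4.97% and 5.99% of all genes were all above and all below. The cholesterol genes had a median of 0.14 with DEN. The test of the DEN difference minus the saline difference called 0 of 27022 probe sets with limma (0.0%), with 2170 at an unadjusted p under 0.05, so no single gene was shown to differ between these conditions, and the sets as wholes were not tested. Id1 had a difference of 0.19 with DEN, and the DEN minus saline value was -1.33 (SE 0.27, adjusted p 0.282). Cmtm6, a membrane protein that stabilises PD-L1, had 0.39 with saline and -0.33 with DEN, and Acot13, a thioesterase, -0.34 and 0.30. For both the saline arrays did not overlap.

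**Figure D5:**
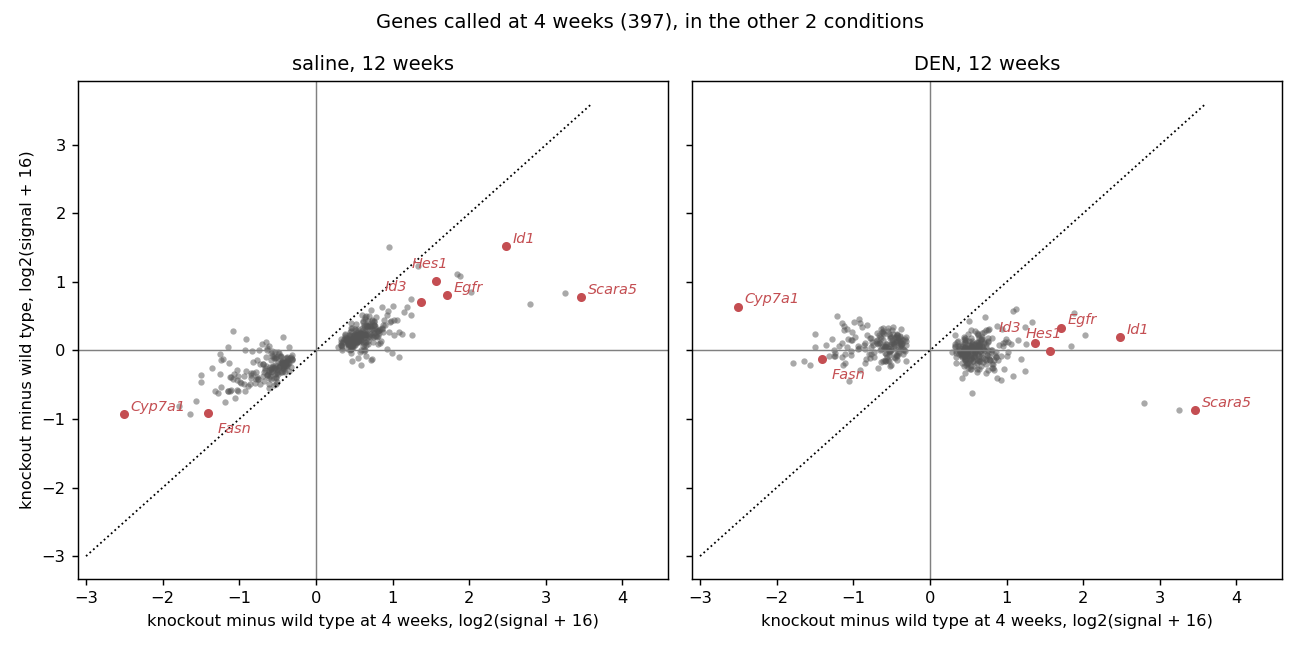
Genes called between the genotypes at 4 weeks (397 points): their 4-week difference (horizontal) against that with saline (left) and with DEN (right), all as log2(signal + 16), with the dotted line marking equal values. The 4-week values chose the genes; on the left most points lie in the quadrants of equal sign (219 of 230 and 155 of 167), on the right they spread around 0.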

How the data were processed

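Liver RNA was hybridized to Affymetrix Mouse430_2 arrays. The authors deposited 1 intensity per probe set and array on a linear scale, made with MAS5 per the submitters' processing notes; no version is given in the sources used here. The mean without the lowest and highest 2% of probe sets was 150 on each array. From the 45101 probe sets, 64 controls were set aside, 16 was added and log2 taken, and those whose mean over 18 arrays reached the 40th percentile (27022) entered lmFit and eBayes with an intensity trend (limma 3.58.1, R 4.3.3), with 1 coefficient for each of 6 groups over all 18 arrays (12 residual degrees of freedom, prior 9.19). Tests were two-sided, with Benjamini-Hochberg adjustment.

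Of 45037 probe sets, 34945 carry 1 gene symbol, 932 carry several and 9160 carry no symbol, by GEO's platform table. A gene is represented by its tested probe set of highest mean. The comparison, the 47 gene lists (689 of 816 genes measured) and the naming rule were chosen with earlier results of these data known: called genes, the 12 smallest p in each direction, the 3 smallest in each list, the HMG, BMP and cholesterol genes, the 5 smallest in each interaction, liver references, and the 10 largest differences without overlap among brighter genes. Adrenal and fat genes were listed after the data were seen. Lists are described by counts. Alternatives were other scalings, added numbers, filters, weights, arrays in the fit and left-out arrays. Simulated data with known changes were used to test the fit.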

Additional observations from a re-analysis of the deposited data

Results flagged for a closer look

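Scara5 stood out because its genotype difference itself differed between conditions: the difference with saline minus that at 4 weeks was -2.68 in log2 (adjusted p 0.0140 in limma's interaction test over 27022 probe sets). The call held in 13 of 25 alternatives and was lost when any of 9 of the 12 arrays was left out. At this probe set the difference was positive in both conditions, at 0.78 with saline and 3.46 at 4 weeks, and -0.87 with DEN. The other tested Scara5 probe set, at low signal, had 0.56 with saline and -0.05 at 4 weeks, so that saline minus 4 weeks was 0.61. With groups of 3 arrays, no test for single outlying arrays was made.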

How the results depend on the processing

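The count of 3 calls became 7 with quantile scaling, 10 when only the saline arrays were so scaled, 9 with equal array medians, 1 without an intensity trend, 94 with array weights, 9 with the saline arrays alone, 1 without _x_at and _s_at probe sets, and, as added after seeing the data, 20 with only the 4-week and saline arrays and 1 with only the DEN and saline arrays; leaving out single arrays gave 0 to 6. It was 3 with loess scaling, other added numbers and other filters. With the replicate number as a block it was 5, though same-numbered arrays do not pair: their deviations correlated at -0.04 to -0.02. The saline minus 4-week count of 1 became 0 with 64 added, without a trend and with the replicate block, 4 with array weights, 3 with the 12 arrays compared, and 0 to 1 without single arrays. The DEN minus saline count of 0 became 1 without _x_at and _s_at probe sets and 0 to 2 without single arrays. Of 91 saline gene differences followed through these alternatives, 4 changed sign in at least 1. With another scaling these were Hmgn1 (0.0082, loess), Hamp (-0.034, equal medians) and Tyrobp (-0.0745, equal medians). Without single arrays Hmgn1 ranged from -0.071 to 0.0094, Tyrobp from -0.10 to 0.13 and Fabp4 from -0.028 to 1.62. None of the 70 with an unadjusted p under 0.05 did. For low signals the 16 added shrinks the differences.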

Other observations

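Several gene groups tied to HMGN1 or to DEN in other settings had list medians near that of all genes in the saline livers. Of 36 measured DNA repair genes 19 were higher, with a median of 0.01; 7 had all knockout arrays above wild type and 3 all below (7 and 5 without knockout replicate 2), where 10.4% and 8.13% of all genes did (18.4% and 13.4%). Of 20 p53 targets 13 were higher (median 0.09), with 1 all above and 0 all below, where 10.4% and 8.13% of all genes were. Without knockout replicate 2 it was 4 above and 2 below of 20, where 18.4% and 13.4% of all genes were. Of 27 cell cycle genes 14 were higher (median 0.00), with 0 all above and 0 all below, and 0 at an unadjusted p under 0.05 in either direction by limma. Without knockout replicate 2, 1 cell cycle gene was all above and 1 all below. Of 30 interferon and antigen presentation genes 14 were higher (median -0.01), and of 30 acute phase and inflammation genes 21 (median 0.04), led by Il1r1, the interleukin-1 receptor, at 0.63 (adjusted p 0.618), and the ferrireductase Steap4 at 0.31.

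Of 25 PPAR-alpha and fatty acid oxidation genes 11 were higher (median 0.00), of 28 cytochrome P450 genes 19 (median 0.04), with the smallest p at Cyp2c70 (0.28) and the largest value at Cyp1b1 (0.70, low signal, groups overlapping), and of 28 glutathione and NRF2 genes 13 (median -0.04). Of 9 metallothionein and zinc genes 8 were higher (median 0.18), with the zinc and iron importer Slc39a14 at 0.21 and no overlap. The largest value was that of the metal-binding protein gene Mt2, with 719, 236 and 1817 in wild type and 1437, 1348 and 971 in knockout, a difference of 0.84 (SE 0.69, adjusted p 0.993) with overlapping groups that was 0.11 without wild-type replicate 2. Of 19 clock genes 11 were higher (median 0.05), with 2 all above and 0 all below wild type, where 10.4% and 8.13% of all genes were. With equal array medians the medians of these 10 lists lay between -0.17 and 0.05.

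Of 15 iron handling genes 12 were higher (median 0.06, 10 of 15 without knockout replicate 2 and a median of -0.07 with equal medians), of 20 genes of EGFR, its ligands and its feedback inhibitors 12 (median 0.02), with Egfr the one whose arrays were all above, and of 24 zonation genes 14 (median 0.02). In the EGFR list this was 1 of 20, where 10.4% of all genes were all above, and 2 of 20 without knockout replicate 2, where 18.4% were. Of 27 endoplasmic reticulum stress genes 18 were lower (median -0.04), and of 18 TGF-beta pathway genes 11 (median -0.11). Of 19 fetal liver and tumour markers 12 were higher with a median of 0.19, which was -0.07 without knockout replicate 2. Of 10 female-biased genes 7 were higher (median 0.18, or 0.05 with equal medians), of 23 genes of fasting and insulin state 13 (median 0.01), and of 17 hepatocyte transcription factors 9 (median 0.01). The median of 3 adipocyte markers was 1.03, and -0.03 without knockout replicate 2.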
